A study of Mus musculus with 7 samples.

Results

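Choroid plexus epithelial cells made up 106 of 39315 filtered barcodes in 7 droplet RNA libraries of cells enriched from mouse brain, and were found in 6 of these libraries. A filtered barcode had at least 500 detected genes and at most 15% mitochondrial UMIs, a UMI being 1 counted mRNA molecule. A member had at least 1 UMI of 3 or more of the genes Folr1, Kl, Clic6, Kcnj13, Prlr and Enpp2, at least 10 UMIs of Ttr, and at most 2 UMIs in all of the endothelial genes Cldn5, Flt1 and Ly6c1. The members were thus chosen by the measured UMIs of these 10 genes, whose values describe the choice and are not results. The libraries came from untreated C57Bl6 mice, an inbred strain, with 3 libraries at an age of 12 months and 4 at 3 months. From each, 1 hemisphere without cerebellum, brain stem and olfactory bulbs was digested with collagenase, and cells were pulled down on beads with an antibody to CD31, a surface protein of endothelial cells. CD31 is not known as a marker of choroid plexus epithelium. Single indexing was used at 12 months and dual indexing at 3 months, and the Cell Ranger version differed with it. Age cannot be told apart from these.

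The choroid plexus hangs into the brain ventricles and makes most of the cerebrospinal fluid. Its epithelium is a single sheet whose tight junctions close the barrier between blood and cerebrospinal fluid. Sodium pumps, cotransporters and anion exchangers drive salt and water across the sheet, and the cells secrete transthyretin, the product of Ttr, which carries thyroid hormone and retinol-binding protein. They also move vitamins, among them folate through the receptor encoded by Folr1, release growth factors and peptides, and bear tufts of cilia.

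By age and library, the members numbered 51 of 5289 filtered barcodes in 12-month replicate 1, 6 of 6331 in replicate 2 and 13 of 9705 in replicate 3. The 3-month libraries held 9 of 4096, 10 of 4130, 17 of 5842 and 0 of 3922 members in replicates 1 to 4. All 6 gate genes other than Ttr were detected in 80 of the 106 members and just 3 of them in 2. The lowest Ttr count in a member was 109 UMIs, well inside its limit. At the endothelial limit, 78 members had 0 of these UMIs, while 6, 12 and 1 barcodes at 12 months and 3, 10, 23 and 0 at 3 months met the other conditions and were left out by that limit alone. Those just outside by it held medians of 11.5, 12.5 and 11 endothelial UMIs at 12 months and 44, 140.5 and 61 in 3-month replicates 1 to 3. In 3-month replicates 2 and 3, 60 and 18 barcodes with 10 or more Ttr UMIs fell outside only because they had fewer than 3 of the 6 genes. No member carried one of the highest doublet scores of scrublet, and no member's barcode sequence was seen in another library.

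Beside the genes that chose them, the members carried the genes known for this epithelium, described further on. By the sums of marker lists they held few transcripts of most other brain cells, ependymal markers apart. Ttr took a median of 39.6%, 20.9% and 26.2% of a member's UMIs at 12 months and 31.7%, 31.05% and 36.9% at 3 months, in the order of replicates 1 to 3. Levels are CPM, the UMIs of a gene scaled to a common total over the summed UMIs of a library's members. Folr1 stood at 1089, 1083 and 1323 in 12-month and 1381, 1345 and 1335 CPM in 3-month members. Enpp2, which makes lysophosphatidic acid, stood at 14689.9, 21241 and 15817 CPM at 12 months and 11277, 12204 and 17729.8 CPM at 3 months. Over the 4 libraries with at least 10 members, the 10 endothelial markers outside the gate summed to 207 CPM in members against 11083 CPM in the other filtered barcodes. The sums were 192 against 3473 CPM for 10 microglia markers, 33.8 against 1942 CPM for 10 mural markers and 82.8 against 6189 CPM for 8 erythroid markers. They were 114 against 652 CPM for fibroblast, 25.3 against 101 for astrocyte, 53.2 against 671 for oligodendrocyte and 29.98 against 176 for neuron markers. Single genes did not all follow these sums. Of the fibroblast markers, 5 had a mean of at least 10 CPM on either side. Their median log2 fold of members over other barcodes, defined further on, was 1.12, and 1 was at least 4-fold lower. For oligodendrocyte markers 3 had such a mean, with a median of -0.095, and 1 was lower. For border macrophage, B cell and T and NK cell markers they were 6.63 against 21.4, 0.835 against 90.1 and 2.82 against 19.02 CPM. The sum of ependymal markers went the other way, with 551 against 11.4 CPM. Of that list, whose cells line the ventricle next to the plexus, Mia, Rsph1, Dynlrb2, Cfap126 and Ak7 were at least 4-fold higher in members than in the other barcodes, while Ccdc153 and Tmem212 had 0 UMIs in them.

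Some libraries stood apart. In 3-month replicate 2, 7 of the 10 members held fewer than 3000 UMIs, against 10 of 51, 1 of 6 and 0 of 13 at 12 months and 0 of 9 and 3 of 17 in 3-month replicates 1 and 3. In 12-month replicate 1, microglia markers in members summed to 531 CPM, against 34.6 to 124 CPM in the other 5 libraries, and 3 of the 4 members with at least 10 microglia-marker UMIs came from it. Ttr was also seen outside the members. In the other barcodes it stood at 1746, 1165 and 193 CPM at 12 months and 2182, 1651, 4402 and 1.83 CPM at 3 months. The lowest of these was 3-month replicate 4, the library with no member. At least 1 Ttr UMI was found in 12.4%, 43.4% and 10.3% of the other barcodes at 12 months and in 21.0%, 97.1%, 95.2% and 0.994% at 3 months.

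The share of members did not differ between the ages beyond the spread of the libraries. Its 95% intervals are exact (Clopper-Pearson) and hold counting error alone. It was 0.964% (0.719 to 1.27), 0.0948% (0.0348 to 0.206) and 0.134% (0.0713 to 0.229) of filtered barcodes for 12-month replicates 1 to 3. The 3-month replicates 1 to 3 had 0.220% (0.101 to 0.417), 0.242% (0.116 to 0.445) and 0.291% (0.170 to 0.466). In replicate 4 there were 0 of 3922, with an exact upper bound of 0.0940%, and a limit of 3 counts corresponds to a share of 0.0765%. The means were 0.398% ± 0.491 at 12 months and 0.188% ± 0.129 at 3 months (SD, n = 3 and n = 4). The difference of 0.209 percentage points had an exact permutation p of 0.629 (two-sided, 35 arrangements). The smallest p this design can give is 0.0286. The difference rested on 12-month replicate 1, and without that library it was -0.0739 percentage points. With each barcode thinned to 3000 UMIs and shallower ones left out, 12-month replicate 1 held 41 members of 310 barcodes (13.2%), and the difference was 4.47 percentage points (p = 0.0857 in the same exact permutation test).

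**Figure D1:**
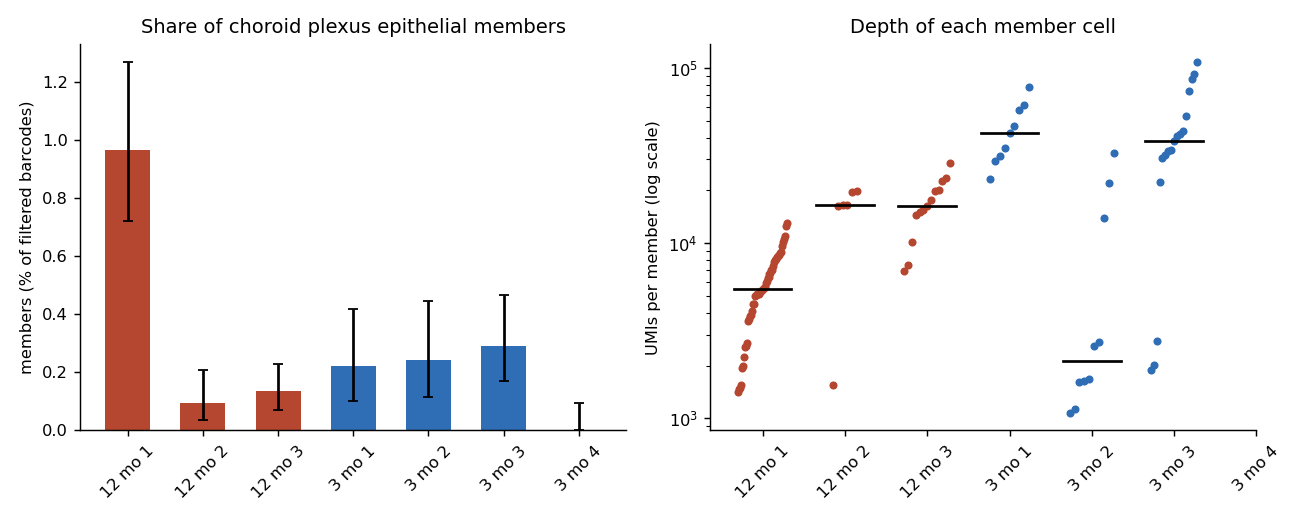
Left, members as a percent of filtered barcodes in each library, with exact 95% binomial intervals; right, UMIs per member on a log scale, one point per cell and a bar at the median. Red marks 12 months and blue 3 months; 12-month replicate 1 has the highest share at 0.964%, 3-month replicate 4 has no member, and 7 of the 10 members of 3-month replicate 2 lie below 3000 UMIs.

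Depth per member varied widely within each age. For replicates 1 to 3, the median was 5496, 16577 and 16286 UMIs per member at 12 months, against 42221, 2128.5 and 38082 at 3 months. A member had a median of 1662, 3872.5 and 3484 detected genes at 12 months, against 5234, 735 and 4860 at 3 months. Mitochondrial genes took a median of 6.24%, 12.05% and 10.6% of its UMIs at 12 months, against 6.75%, 5.02% and 9.08% at 3 months. Over the 2 libraries per age with at least 10 members, the difference of 12 minus 3 months was -9214 UMIs, -224.5 genes and 1.37 percentage points of mitochondrial UMIs, with two-sided exact permutation p = 1, 1 and 0.667. The design allows no p below 0.333 with 2 libraries per age.

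What the members share beyond the gate is given as CPM of their summed UMIs, as mean ± SD over the 4 libraries with at least 10 members (12-month replicates 1 and 3, 3-month replicates 2 and 3, 91 members), beside the other filtered barcodes of the same libraries. Over all 7 libraries, 33881 of the 39209 other barcodes were endothelial, with at least 3 UMIs in all of Cldn5, Flt1 and Ly6c1. The folds thus compare members mostly with endothelial barcodes and not with brain cells in general. The log2 fold is the mean over these libraries of log2((members + 1)/(other + 1)) in CPM. Since the gate chose the cells in this contrast, the folds are a description without a test. Of 9845 genes with a mean of at least 10 CPM on either side, 504 (5.12%) were at least 4-fold higher in members in each library and 1357 (13.8%) at least 4-fold lower. These shares are the background for the counts of each list below. Since Ttr takes the share of UMIs given above, it lowers the CPM of every other gene in members. With the 10 gate genes left out of the totals, 10272 genes reached the same CPM limit. The median log2 fold of all genes was then -0.51, against -1.14 with them, and the counts were 715 higher and 1072 lower. Of the called genes 40.01% were higher, against 27.1% with the gate genes in the totals. Beyond the most abundant genes of each list and the 25 of the next paragraph, genes were named after their values were seen.

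The 25 genes furthest above the other barcodes, among those of at least 100 CPM, had log2 folds of 6.34 to 7.67. Gate, ribosomal and mitochondrial genes were left out of this ranking, as were predicted genes, such as those named Gm and a number. Ecrg4, which encodes a secreted precursor of peptides, led with 3677 ± 554 CPM in members against 27.4 ± 26.3 CPM in the other barcodes. Next came Sostdc1, an antagonist of BMP and Wnt signalling, with 1101 ± 313 against 7.17 ± 7.45 CPM, and Igfbp2, which binds insulin-like growth factors, with 2012 ± 235 against 13.7 ± 10 CPM. Wfdc2, Tmem72, 2900040C04Rik, Kcne2, Htr2c, Trpm3, Calml4, Col9a3, Steap1, Ppp1r1b, Pcp4, Atp2b3, Slc4a10, Slc13a4, Car12, Pcolce2, Cntn1, Ptgds, Slc16a8, Slc4a5, Kcnk1 and Otx2 followed in this order. In each of the 6 libraries with members, every one of the 25 stood higher in members than in the other barcodes. Relative to its mean, the SD over libraries was larger in the other barcodes than in members for all 25.

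**Figure D2:**
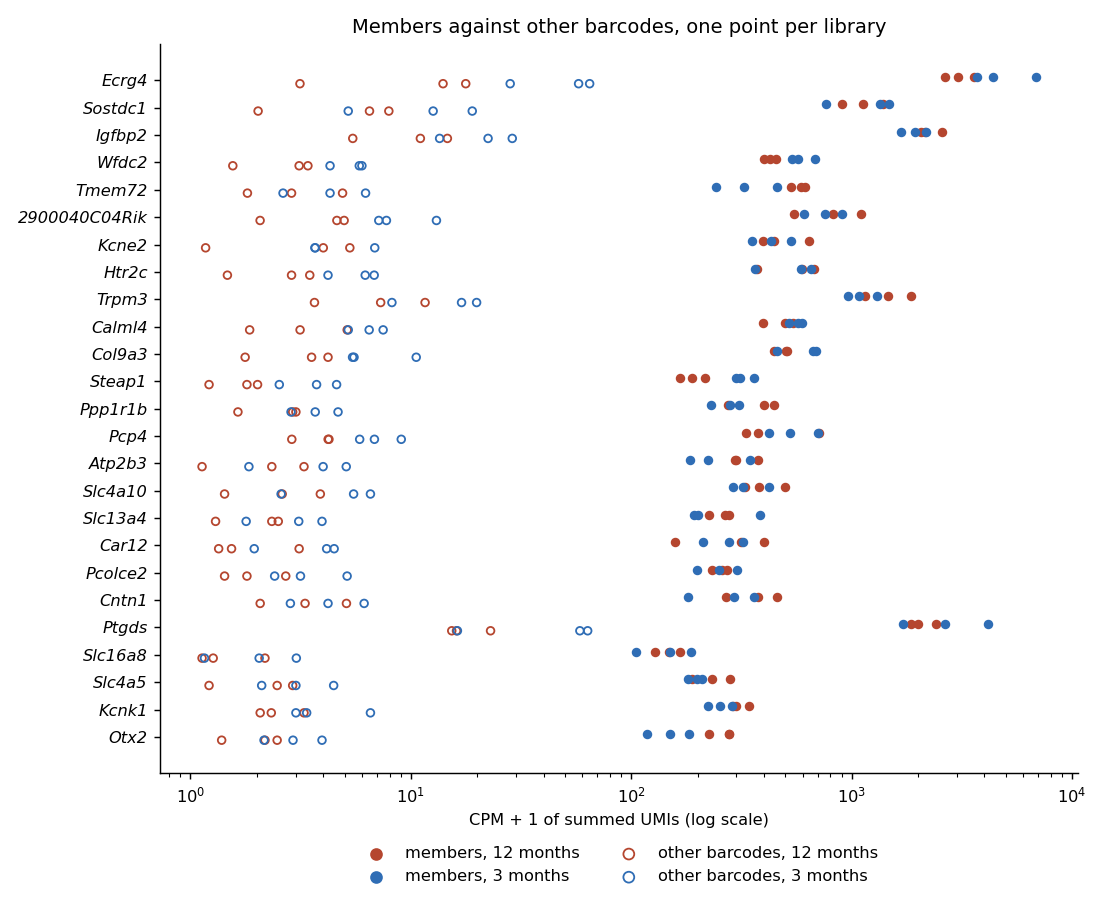
CPM + 1 of summed UMIs on a log scale for the 25 genes, one point per library; filled points are members and open points the other barcodes of the same library, red 12 months and blue 3 months. Filled and open points do not overlap for any of the 25 genes.

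Of the genes of ion and water transport, the machinery of fluid secretion, 12 of 24 described genes were at least 4-fold higher in members and 1 lower, with a median log2 fold of 2.96, against -1.14 over all genes. Trpm3, a steroid-sensitive cation channel, stood at 1145, 1857 and 1466 CPM at 12 months and 958, 1308 and 1079 CPM at 3 months, replicates 1 to 3 in order. Its values overlapped between the ages. The sodium pump was present with its beta subunit Atp1b1 (1039.6 ± 137 against 34.8 ± 11.1 CPM) and its regulator Fxyd1 (1149 ± 180.0 against 39.6 ± 6.74 CPM). Slc12a2, the sodium, potassium and chloride cotransporter NKCC1, stood at 539.8 ± 74.7 against 43.6 ± 2.53 CPM. Bicarbonate carriers were high as well, with Slc4a2, an anion exchanger, at 451 ± 115 against 21.99 ± 3.53 CPM. Slc4a10, a sodium-driven exchanger, stood at 361 ± 47.1 against 3.02 ± 2.40 CPM, and Slc4a5 at 219 ± 42.1 against 1.79 ± 1.35 CPM. Carbonic anhydrases, which supply bicarbonate, were represented by Car12 (267 ± 75.6 against 1.88 ± 1.67 CPM) and Car2 (504 ± 73.05 against 106 ± 37.9 CPM), the second of which is not 4-fold higher in each library. The potassium channel subunit Kcne2 stood at 641, 442 and 395 CPM at 12 months and 428, 531 and 352 CPM at 3 months. The calcium pump Atp2b3 stood at 294, 376 and 299 CPM at 12 months and 183, 346 and 223 CPM at 3 months. Aqp1, the apical water channel, stood at 120.2, 254 and 216 CPM at 12 months and 116, 86.4 and 182 CPM at 3 months.

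Among carriers of nutrients, vitamins and organic solutes, 13 of 35 were at least 4-fold higher and 8 lower. Slc22a17, a receptor for lipocalin 2, stood at 1159 ± 145 against 18.9 ± 6.91 CPM. Slc13a4, a sulfate carrier, stood at 268 ± 80.9 against 1.67 ± 1.13 CPM. Slc23a2, which takes up ascorbate, was at 157 ± 58.9 against 24.8 ± 2.98 CPM, and Slc5a3, which takes up myo-inositol, at 154 ± 52.2 against 18.3 ± 2.78 CPM. The lactate carrier Slc16a8 (152 ± 24.2 against 0.867 ± 0.870 CPM), the monoamine and nucleoside carrier Slc29a4 (152 ± 28.9 against 4.85 ± 1.37 CPM), the glucose carrier Slc2a12 (135 ± 41.97 against 4.22 ± 0.833 CPM) and the proton-coupled folate carrier Slc46a1 (34.8 ± 13.99 against 4.22 ± 3.05 CPM) were in the same group. The thyroid hormone carrier Slco1c1, which brain capillaries also use, stood at 376 ± 40.9 against 921 ± 339 CPM.

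Genes of secreted proteins summed to 24828, 22568 and 22820.0 CPM in 12-month and 27483, 20199 and 24026 CPM in 3-month members of replicates 1 to 3. At least 4-fold higher were 11 of 29 genes and 5 were lower. Beside Ecrg4, Sostdc1 and Igfbp2, the prostaglandin D synthase Ptgds stood at 2404, 2000.3 and 1856 CPM at 12 months and 4162, 1715 and 2637 CPM at 3 months, and Clu, an extracellular chaperone, at 1769 ± 221 against 121 ± 95.8 CPM. Apoe was at 4208 ± 446 against 1374 ± 613 CPM and Cst3 at 2607 ± 355 against 4129 ± 2481 CPM, both below the 4-fold limit. The growth factor Igf2 stood at 975, 475 and 607 CPM at 12 months, against 225, 481 and 317 CPM at 3 months, with overlap of 1 12-month and 1 3-month library. Ins2, an insulin gene of mice, was detected in all 6 libraries, at 30.1, 11.1 and 64.3 CPM at 12 months and 44.5, 37.02 and 57.1 CPM at 3 months, against 0.382 ± 0.392 CPM in the other barcodes. Vegfa, which maintains the fenestrated capillaries of the plexus, was at 50.8 ± 8.65 against 4.65 ± 2.35 CPM, and Bmp7 at 44.1 ± 34.97 against 0.321 ± 0.193 CPM.

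Receptors were mixed, with 4 of 24 at least 4-fold higher and 2 lower. The serotonin receptor Htr2c, stood at 594, 674 and 372 CPM at 12 months and 589, 654 and 363 CPM at 3 months. The tetraspanin Cd63 (1476 ± 134 against 100.4 ± 56.9 CPM), the lipoprotein receptor Vldlr (124 ± 35.97 against 2.55 ± 0.985 CPM) and the FGF receptor Fgfr2 (39.4 ± 11.3 against 1.43 ± 0.634 CPM) were the others above the limit. The IGF receptor Igf1r was lower, at 142 ± 14.8 against 745 ± 270.4 CPM. Of the epithelial junction and keratin genes, Krt18 (215 ± 12.9 against 1.97 ± 1.17 CPM), Krt8 (76.3 ± 36.04 against 0.557 ± 0.397 CPM), Cldn2, a claudin that forms cation and water pores (155 ± 35.5 against 1.18 ± 0.917 CPM), Cldn1 (76.3 ± 9.31 against 0.557 ± 0.379 CPM), Cldn3 (41.1 ± 21.7 against 0.328 ± 0.224 CPM), the polarity gene Crb3 (76.4 ± 17.9 against 0.544 ± 0.556 CPM), the desmosome gene Dsp (55.3 ± 40.7 against 3.27 ± 3.00 CPM) and Ezr, which links microvilli to actin (438 ± 89.6 against 31.4 ± 2.21 CPM), made up the 8 of 23 higher genes, and 5 were lower.

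Transcription factors of the list had the highest median log2 fold of the function lists, 3.14, with 6 of 16 at least 4-fold higher and 1 lower. Otx2, a homeobox factor that choroid plexus needs in development and later, stood at 224, 276 and 276 CPM at 12 months and 116, 148 and 182 CPM at 3 months. Msx1 (269.8 ± 58.3 against 27.1 ± 2.27 CPM), Sox9 (180.2 ± 75.9 against 21.6 ± 11.4 CPM), Sox2 (35.05 ± 9.06 against 0.695 ± 0.432 CPM), Lmx1a (15.5 ± 6.56 against 0.0731 ± 0.0767 CPM) and Foxj1 (49.6 ± 11.04 against 0.641 ± 0.300 CPM), the switch for motile cilia, were the others. Of 15 Hox genes, which mark tissue of the hindbrain and spinal cord, 14 had 0 UMIs in all members and Hoxb3os had 1. Their sum was low on both sides, 0.835 CPM in members and 1.05 CPM in the other barcodes, so it does not set members apart.

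Sequences before the start sites of a channel and of this factor are shown because Kcne2 and Otx2 were among the 25 genes and their windows hold one of the motifs searched. Capitals mark the motif, GTTGCC (part of the site of RFX factors, which drive ciliary genes) or TAATCC (the core bound by OTX factors), on either strand, so that GGCAAC and GGATTA are the same motifs on the opposite strand. Each line gives 250 bases ending at the base before a RefSeq start site, 5′ to 3′ along the gene's strand, from the RefSeq promoter table of GRCm38.p6. Kcne2 lies on the plus strand at chr16:92292139-92292388, and the Otx2 windows shown lie on the minus strand at chr14:48667645-48667894 and chr14:48665110-48665359.
Kcne2: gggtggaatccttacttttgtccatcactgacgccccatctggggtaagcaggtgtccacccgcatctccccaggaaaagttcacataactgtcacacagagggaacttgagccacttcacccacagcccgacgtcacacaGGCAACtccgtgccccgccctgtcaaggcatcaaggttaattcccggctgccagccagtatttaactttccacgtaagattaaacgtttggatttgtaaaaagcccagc
Otx2, distal start: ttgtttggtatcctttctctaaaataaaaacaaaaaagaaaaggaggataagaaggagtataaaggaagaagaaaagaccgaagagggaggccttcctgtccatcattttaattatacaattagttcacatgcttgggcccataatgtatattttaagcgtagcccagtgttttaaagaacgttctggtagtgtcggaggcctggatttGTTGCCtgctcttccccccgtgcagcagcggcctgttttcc
Otx2, proximal start: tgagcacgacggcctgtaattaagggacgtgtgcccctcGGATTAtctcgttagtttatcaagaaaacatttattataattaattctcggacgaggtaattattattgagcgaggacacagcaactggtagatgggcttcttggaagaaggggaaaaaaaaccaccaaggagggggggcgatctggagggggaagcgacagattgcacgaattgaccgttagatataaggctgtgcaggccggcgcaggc
Of the 25 genes, 21 had an entry, with 31 windows of 300 bases that run 50 bases past the start site. GTTGCC was found in 6 of the 31 windows (19.4%), for Kcne2, Steap1, Slc4a10, Pcolce2 and Otx2, against 12.5% of all 32851 windows. TAATCC was found in 1 (3.23%), against 7.06%. A match is a run of letters and not a bound site.

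Genes of motile cilia formed the list with the most members above the limit, 17 of 44 described genes and 0 below it, and a median log2 fold of 2.10. Summed over the list they stood at 2932, 3260.2 and 3846 CPM in 12-month and 3375, 3097 and 3588 CPM in 3-month members. The radial spoke gene Rsph9 stood at 174, 210.0 and 207 CPM at 12 months and 287, 247 and 219 CPM at 3 months. Rsph1 stood at 73.5, 99.5 and 91.9 CPM at 12 months and 158, 98.7 and 147 CPM at 3 months. Tekt1, a protein of the ciliary microtubules, was at 72.4 ± 21.2 against 0.569 ± 0.367 CPM. Dynlrb2, a dynein light chain, was at 67.97 ± 21.8 against 1.12 ± 0.929 CPM, Ccdc39, an axonemal ruler, at 65.6 ± 28.7 against 1.55 ± 0.702 CPM, and Pifo at 63.3 ± 14.8 against 0.595 ± 0.326 CPM. These genes are shared with ependymal cells, of whose 10 markers 5 were at least 4-fold higher in members and 2 had no UMI, as given above. The part of ependymal RNA in these sums was not tested.

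All 76 nuclear genes of oxidative phosphorylation were described, with a median log2 fold of 1.13 and 3 above the 4-fold limit, namely Atp5g1 (1671 ± 372 against 173 ± 24.2 CPM), Ndufa1 (949 ± 309.9 against 174 ± 30.9 CPM) and Cox8b. The 13 mitochondrially encoded genes had a median of 1.29 with none past 4-fold. The 82 cytosolic ribosomal protein genes had a median of -1.02, close to that of all genes. With the gate genes out of the totals these medians were 1.72, 1.88 and -0.43, and 17 genes of oxidative phosphorylation passed 4-fold. Of genes for retinoid handling, Rdh5, a retinol dehydrogenase, stood at 364 ± 142 against 5.10 ± 1.29 CPM. Among metal and antioxidant genes, Mt3, a metallothionein, stood at 1152 ± 469 against 17.02 ± 7.51 CPM, Prdx5 at 754 ± 128 against 94.9 ± 15.8 CPM, Gpx8 at 166 ± 18.8 against 10.1 ± 1.09 CPM and Nqo1 at 44.6 ± 13.2 against 3.97 ± 0.617 CPM. For the lists of lysosome and secretory pathway (median -0.10), metal and antioxidant genes (-0.21), receptors (-0.23), heat shock (-0.24) and junctions (-0.95), the sign of the median turned positive when the gate genes were left out. The described genes then also went from 23 to 24 for junctions and from 24 to 25 for receptors. The junction median moved by 1.75, against 0.62 over all genes, so its gene set changed as well as the totals.

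Of 33 immediate early and dissociation genes, 29 were at least 4-fold lower in members, with a median log2 fold of -4.97. Summed over the list they stood at 2094, 1116 and 1989.7 CPM in 12-month and 809, 1283 and 894 CPM in 3-month members, against 37417, 32829 and 31589 CPM in the other barcodes at 12 months and 16848, 18586 and 17842 CPM in those of 3-month replicates 1 to 3. Fos was at 86.1 ± 80.2 against 2366 ± 1554 CPM, Jun at 265 ± 160.4 against 4101 ± 2056 CPM and Btg2 at 108 ± 83.5 against 1090.2 ± 165 CPM. Of 16 genes of MHC class I presentation 11 were lower, with B2m, the shared light chain, at 77.8 ± 23 against 1363 ± 159 CPM and H2-K1 at 55.9 ± 16.5 against 1213 ± 354 CPM. The classical and non-classical H2 genes are close copies of each other, so which copy was counted is uncertain. Of 28 interferon response genes 15 were lower and none higher, with Ifitm3 at 158 ± 185 against 1539.8 ± 433 CPM, while Ifi27 was above the other barcodes at 773 ± 276 against 284 ± 32.4 CPM, under 4-fold. Clock genes (2 of 14 lower) and genes of growth arrest (5 of 19 lower) had none above the limit. Of all genes described, 5.12% were at least 4-fold higher and 13.8% at least 4-fold lower, so the clock count is near that share. The cell cycle inhibitor Cdkn1c stood at 392 ± 197 against 141 ± 27.1 CPM.

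**Figure D3:**
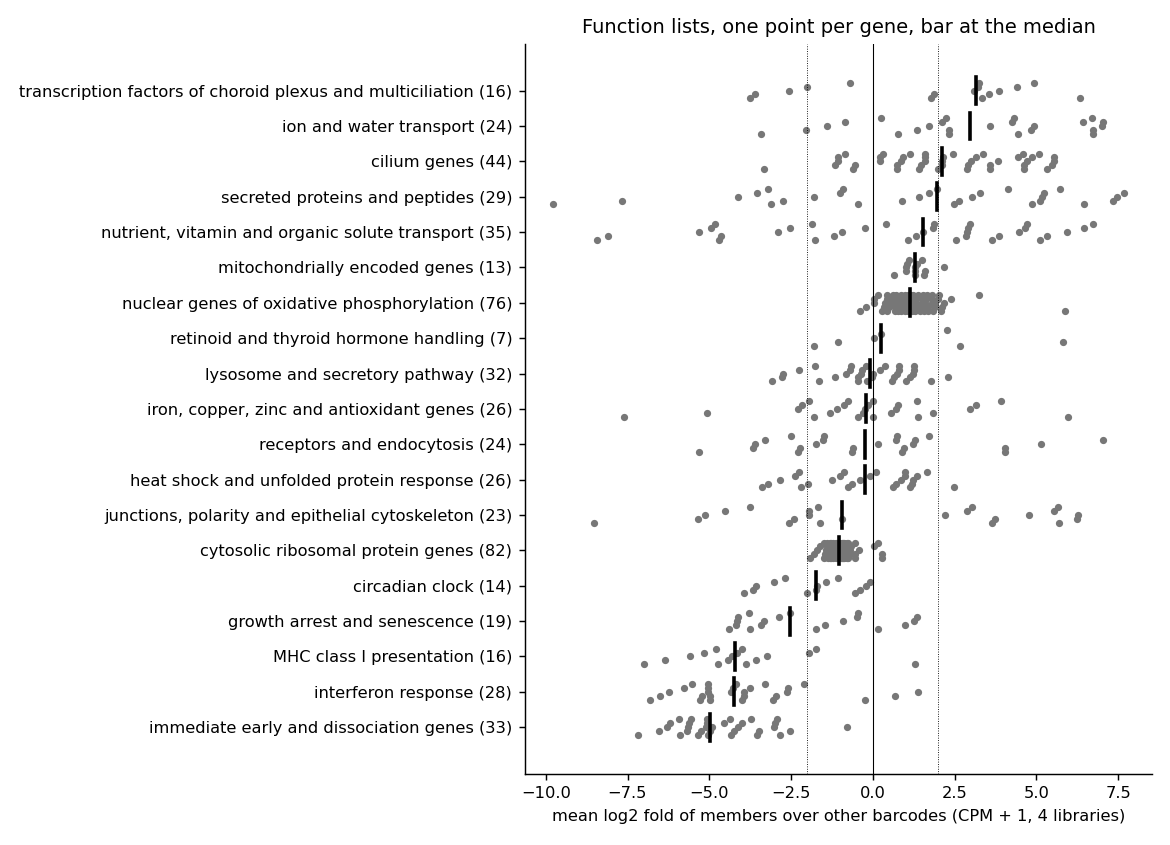
Mean log2 fold of members over other barcodes for each described gene of 19 function lists (number of genes in brackets), ordered by the list median, shown as a bar; dotted lines mark 4-fold. Transcription factors (median 3.14), ion and water transport (2.96) and cilium genes (2.10) lie highest, and immediate early genes (-4.97) lowest.

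Between the ages, the members' genes differed little beyond the spread of the libraries. The edgeR quasi-likelihood test on summed counts of 12-month replicates 1 and 3 and 3-month replicates 2 and 3 called 1 of 2856 genes (0.035%) at Benjamini-Hochberg adjusted p under 0.05, and 120 (4.2%) had an unadjusted p under 0.05. The gene called was Cox8b, a heart and muscle isoform of a cytochrome c oxidase subunit, at chr7:140898945-140900446 of GRCm38. It stood at 371 and 404 CPM in 12-month replicates 1 and 3, against 24.7 and 101 CPM in 3-month replicates 2 and 3, a log2 fold change of 2.10 ± 0.37 (SE) with adjusted p = 0.0318. Of the libraries with fewer members, 12-month replicate 2 (6 members) had 365 CPM, close to the other 12-month libraries. The value of 3-month replicate 1 (9 members) did not follow this split, at 413 CPM, the highest of all. With these 2 libraries in the fit, 3 per age, Cox8b changed by 0.78 ± 0.43 with adjusted p = 0.605, and 0 of 2751 genes were called, 251 (9.12%) having an unadjusted p under 0.05. DESeq2 called 0 of the 2856 genes, with 18 at an unadjusted p under 0.05. Leaving out 12-month replicate 1 or 3 gave 13 or 22 calls, and leaving out 3-month replicate 2 or 3 gave 25 or 15, with 1 library left at that age whose spread is taken to be like the others'.

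**Figure D4:**
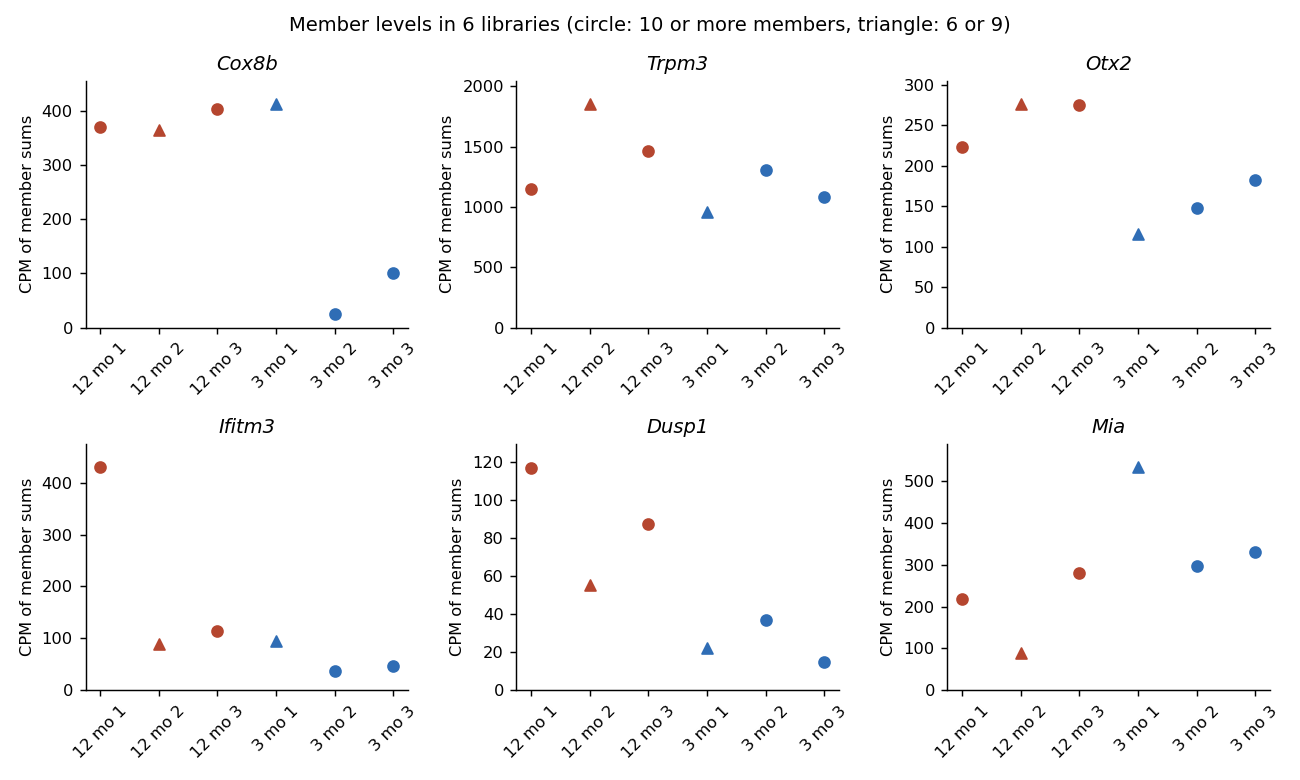
CPM of member sums in 6 libraries for 6 genes picked to show the kinds of pattern after their values were seen; circles are libraries with 10 or more members and triangles those with 6 or 9, red 12 months and blue 3 months. Cox8b is low in 3-month replicates 2 and 3 only, Otx2 and Dusp1 do not overlap between the ages, and Ifitm3 is highest in 12-month replicate 1.

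Of the genes of each list that were tested between the ages, 0 of 21 in ion and water transport, 0 of 23 in solute carriers, 0 of 20 in secreted proteins, 0 of 14 in receptors, 0 of 8 in transcription factors and 0 of 19 in cilium genes were called. Cox8b was the 1 gene called of 76 of oxidative phosphorylation. The median log2 changes of secreted proteins, receptors, transcription factors and cilium genes were 0.02, -0.21, -0.23 and -0.14, against 0.01 over all 2856 genes. Summed over the list, secreted proteins stood at 23405 ± 1239 CPM at 12 months and 23903 ± 3644 CPM at 3 months (SD, n = 3 each), cilium genes at 3346 ± 463 and 3353 ± 246, and ion transport at 9534 ± 1076 and 8158 ± 775. With 2 or 3 libraries per age a p that misses the threshold does not show that levels were equal.

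Several genes did not overlap between the 3 libraries of each age without passing the test, in a table where 16.1% of genes do not overlap. They are named after their values were seen. Otx2 stood at 224, 276 and 276 CPM at 12 months, against 116, 148 and 182 CPM at 3 months (log2 0.62 ± 0.28, edgeR adjusted p = 0.529). The metalloreductase Steap1 was at 187, 166 and 216 against 312, 358 and 298 CPM (-0.86 ± 0.27, edgeR adjusted p = 0.367). Trf, the iron carrier transferrin, was at 681, 519 and 689 against 294, 247 and 285 CPM (1.05 ± 0.26, edgeR adjusted p = 0.161). The clock output gene Dbp was at 13.4, 22.1 and 18.4 against 51.96, 49.4 and 55.7 CPM (-1.78 ± 0.49, edgeR adjusted p = 0.285). Trf is also an oligodendrocyte gene, and oligodendrocyte markers in members summed to 86.8, 55.3 and 41.4 CPM at 12 months and 24.7, 49.4 and 35.3 CPM at 3 months, whose part in its level was not tested.

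Of the 33 immediate early genes, 10 passed the filter on low counts, 0 were called, and 4 had a positive change with unadjusted p under 0.05 in the fit with 3 libraries per age, where 9.12% of all genes had such a p in either direction. Egr1 stood at 83.5, 66.3 and 41.4 CPM at 12 months, against 7.42, 24.7 and 5.43 CPM at 3 months (2.89 ± 0.58, edgeR adjusted p = 0.0793). Dusp1 stood at 117, 55.3 and 87.3 CPM at 12 months, against 22.3, 37.02 and 14.9 CPM at 3 months (2.09 ± 0.45, edgeR adjusted p = 0.0793). Jun stood at 431, 133 and 345 CPM at 12 months, against 39.6, 222 and 61.1 CPM at 3 months, with overlap. The sums of the list in the other barcodes, given above, were also higher at 12 months in all 3 libraries than in 3-month replicates 1 to 3. The part of their RNA in the members' values was not tested. In the interferon list, 5 genes passed the filter, 0 were called, and 3 had a positive change with unadjusted p under 0.05 in the same fit. Ifitm3 stood at 431, 88.4 and 115 CPM at 12 months, against 94.02, 37.02 and 47.5 CPM at 3 months (1.75 ± 0.46, edgeR adjusted p = 0.258, and 2.52 ± 0.50 with 0.0570 by edgeR with 2 libraries per age), the high value being that of 12-month replicate 1, where microglia markers in members were highest too. The part of microglial RNA in the Ifitm3 level was not tested.

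The change between the ages was next compared between members and endothelial barcodes, those with at least 3 UMIs of Cldn5, Flt1 and Ly6c1. Shifts shared by both cell classes of a library cancel in this test. The edgeR interaction test, with a term for each library, called 35 of 12349 genes (0.283%). The change was higher in members for 31 (0.251%) and lower for 4 (0.0324%), and 505 (4.09%) had an unadjusted p under 0.05. DESeq2 called 0, with 153 at an unadjusted p under 0.05. Of the 31, 23 were genes at least 4-fold higher in members, and for all 23 the endothelial mean was lower at 12 than at 3 months in the 4 libraries. Those endothelial means over the ages were low, 1.36 to 29.05 CPM, and an interaction call alone does not tell which class changed. Of all 31, the age test in members called Cox8b alone. The endothelial levels of Cox8b, given in the next paragraph, overlapped between the ages. Mia stood at 217 and 280.3 CPM in 12-month members, against 296 and 330.1 CPM in 3-month members. In endothelial barcodes Mia was at 1.54 and 0.152 CPM at 12 months and 5.12 and 6.37 CPM at 3 months (log2 interaction 2.98 ± 0.50, adjusted p = 8.4e-06 by edgeR). In members Mia had a log2 change of -0.48 ± 0.30 (edgeR adjusted p = 0.998), on the other side of 0. Atp2b3 stood at 294 and 299 CPM in 12-month members, against 346 and 223 CPM in 3-month members. In endothelial barcodes Atp2b3 was at 1.71 and 0.101 CPM at 12 months and 3.21 and 4.27 CPM at 3 months (log2 interaction 2.86 ± 0.51, adjusted p = 2.9e-05 by edgeR). The members' values of Atp2b3 overlapped between the ages. Its endothelial level was lowest in 12-month replicate 3, where Ttr in the other barcodes was also lowest of these 4 libraries. The part of such traces in the interaction was not tested. With the sums of both classes thinned to a common total, 1 gene was called, and the interaction was -0.042 for Atp2b3 and -0.70 for Vat1l. Without 12-month replicate 3 the count was 11 and without 3-month replicate 3 it was 18. Without 12-month replicate 3, the edgeR adjusted p was 1 for each of Mia, Cox8b, Atp2b3, Vat1l and Car12.

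Cox8b stood at 371 and 404 CPM in 12-month members, against 24.7 and 101 CPM in 3-month members. In endothelial barcodes Cox8b was at 2.57 and 0.152 CPM at 12 months and 1.17 and 1.63 CPM at 3 months (log2 interaction 2.95 ± 0.55, adjusted p = 9e-05 by edgeR). With 3 libraries per age its interaction was 0.96 (edgeR adjusted p = 0.388). The carbonic anhydrase gene Car12 stood at 157 and 312 CPM in 12-month members, against 321 and 276 CPM in 3-month members. In endothelial barcodes Car12 was at 0.684 and 0.406 CPM at 12 months and 3.27 and 3.56 CPM at 3 months (log2 interaction 2.49 ± 0.53, adjusted p = 0.00205 by edgeR). Vat1l stood at 130.2 and 253 CPM in 12-month members, against 111 and 199.7 CPM in 3-month members. In endothelial barcodes Vat1l was at 1.20 and 0.101 CPM at 12 months and 1.85 and 2.29 CPM at 3 months (log2 interaction 2.50 ± 0.63, adjusted p = 0.0283 by edgeR). With 3 libraries per age the interaction was 1.09 for Car12 (edgeR adjusted p = 0.245), 1.14 for Vat1l (0.391), 1.31 for Atp2b3 (0.0539) and 1.51 for Mia (0.0301). Of the 4 genes with a lower change in members, 3 had a mean of at least 50 CPM in members. The integrin gene Itgb5 stood at 53.4 and 73.5 CPM in 12-month members, against 37.02 and 72 CPM in 3-month members. In endothelial barcodes Itgb5 was at 40.2 and 33.4 CPM at 12 months and 9.72 and 9.46 CPM at 3 months (log2 interaction -2.16 ± 0.52, adjusted p = 0.0114 by edgeR). The lysosomal protease gene Lgmn stood at 100.2 and 142 CPM in 12-month members, against 74.04 and 159 CPM in 3-month members. In endothelial barcodes Lgmn was at 51.2 and 74.3 CPM at 12 months and 25.2 and 23.8 CPM at 3 months (log2 interaction -1.70 ± 0.39, adjusted p = 0.00764 by edgeR). For both, the endothelial levels at 12 months lay above those at 3 months. Both stood higher in the other barcodes as a whole than in endothelial ones, Itgb5 at 87.4 against 23.2 CPM and Lgmn at 189.9 against 43.6 CPM. Microglia markers in the other barcodes summed to 7362 and 4800.2 CPM in these 12-month libraries, against 1079 and 652 CPM in the 3-month ones, and their part was not tested. AY036118 stood at 56.8 and 106 CPM in 12-month members, against 1172 and 147 CPM in 3-month members. In endothelial barcodes AY036118 was at 366 and 5282 CPM at 12 months and 3672 and 1993 CPM at 3 months (log2 interaction -1.94 ± 0.44, adjusted p = 0.00526 by edgeR). Its highest level in members was that of 3-month replicate 2, the library of mostly shallow members. Without 12-month replicate 3 its interaction was 0.11, and with 3 libraries per age it was -1.29 (edgeR adjusted p = 0.0782). Dusp1, a phosphatase of the early response, and Ifitm3, an interferon response gene, were called too and are named after their values were seen. Dusp1 stood at 117 and 87.3 CPM in 12-month members, against 37.02 and 14.9 CPM in 3-month members. In endothelial barcodes Dusp1 was at 965 and 815 CPM at 12 months and 946 and 952 CPM at 3 months (log2 interaction 2.43 ± 0.53, adjusted p = 0.00250 by edgeR). Ifitm3 stood at 431 and 115 CPM in 12-month members, against 37.02 and 47.5 CPM in 3-month members. In endothelial barcodes Ifitm3 was at 2533 and 1434 CPM at 12 months and 1186 and 1793 CPM at 3 months (log2 interaction 2.06 ± 0.44, adjusted p = 0.00227 by edgeR).

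Cells of 1 library also differed among themselves. The 85 members with at least 3000 UMIs were thinned to 3000 UMIs each. For 468 genes with a mean of at least 0.5 UMI the variance within libraries was set against the mean, a ratio of about 1 being what counting alone gives. Gate, ribosomal, mitochondrial and predicted genes are not among the 468. The median ratio was 1.09, and 14 genes (2.99%) exceeded 2. Ifi27l2a, an interferon response gene, had the highest ratio at 12.9. It was seen in 16 of 85 cells, 12 of them from 12-month replicate 1, where 1 cell held 25 UMIs of it with 12 of Ifi27, 11 of Bst2, 9 of Ifitm3 and 1 of the microglia markers. The ratio was 4.18 for Ifitm3 and 2.85 for Bst2, and without 12-month replicate 1 the ratios of the 3 genes were 2.56, 0.874 and 2.36. In sums of all members Ifi27l2a stood at 414, 11.1 and 27.6 CPM at 12 months and 191, 0 and 17.7 CPM at 3 months.

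Malat1, a nuclear RNA, had a ratio of 9.84 and ran from 0 to 64 UMIs per cell, with medians of 26, 17 and 9 at 12 months and 33, 27 and 4 at 3 months, so it varied within each age. Cox8b (ratio 2.92) reached 10, 3 and 4 UMIs in a cell at 12 months and 5, 0 and 2 at 3 months, and 34 of 85 cells had at least 1. Transferrin Trf (ratio 3.38), Ptgds (2.26) and the ferritin light chain Ftl1 (2.16) were among the 10 highest ratios, with Ctsd (5.33) and Apoe (3.91). The peaks of Ctsd (38 UMIs) and Apoe (57 UMIs) fell in 1 member of 12-month replicate 1 that held 23 microglia-marker UMIs. Without 12-month replicate 1 the ratio was 2.19 for Trf, 1.88 for Ptgds, 1.29 for Ftl1, 1.13 for Ctsd and 2.21 for Apoe, against 10.2 for Malat1 and 2.66 for Cox8b. Without the 4 members of 10 or more microglia-marker UMIs, the ratio of Ctsd was 1.29 and that of Apoe 2.16, while that of Ifi27l2a was 13.1 and that of Ifitm3 3.92. Of genes among the 25 and the ion transport list, Otx2 had a ratio of 1.09, Slc12a2 of 1.19, Kcne2 of 1.44, Trpm3 of 1.54 and Htr2c of 1.75.

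**Figure D5:**
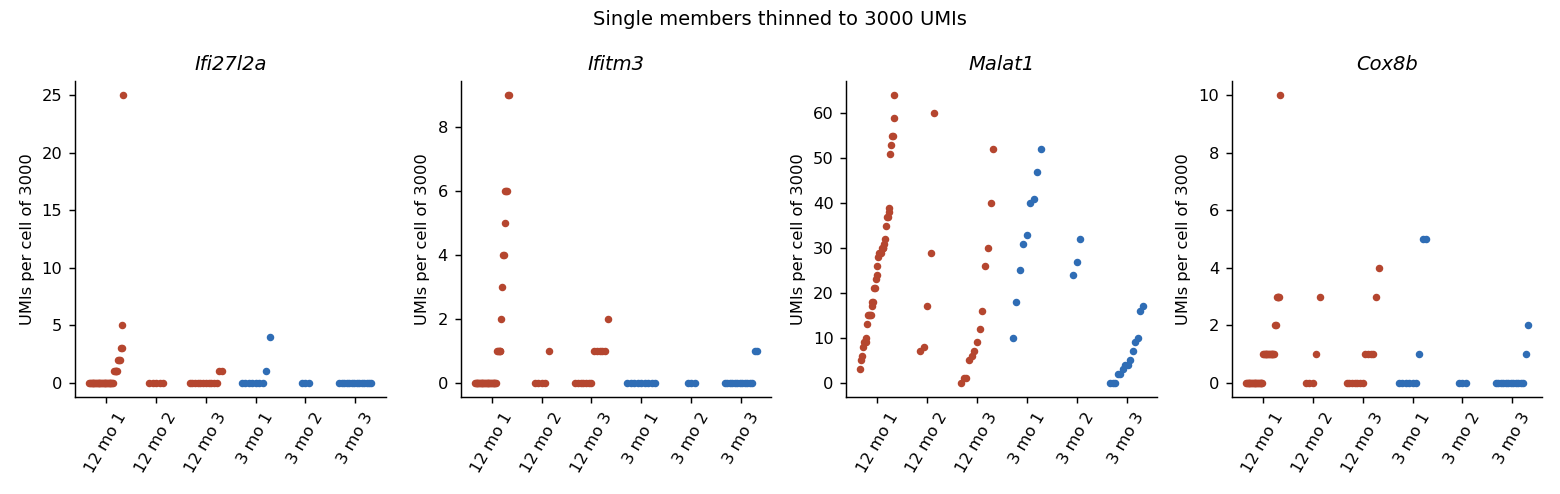
UMIs per member thinned to 3000 UMIs for Ifi27l2a, Ifitm3, Malat1 and Cox8b, one point per cell in 6 libraries, red 12 months and blue 3 months. One 12-month replicate 1 cell holds 25 UMIs of Ifi27l2a, cells with more than 2 UMIs of Ifitm3 come from 12-month replicate 1 only, and Malat1 runs from 0 to 52 UMIs in 12-month replicate 3 and from 0 to 17 in 3-month replicate 3.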

How the data were processed

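Droplet libraries (10x, v3.1 chemistry) gave 1 table of UMI counts per library, which the authors deposited as raw counts per gene and barcode. Per the submitters' processing notes, Cell Ranger, Seurat and mm10 were used, and the file headers name Cell Ranger 4.0.0 at 12 months and 6.1.1 at 3 months. Totals were 8706961 to 44861008 UMIs per library. No label ties libraries to mice beyond replicate numbers, so p-values measure the spread between libraries, which may be technical. Members and lists were chosen with earlier results of these data known. Counts were summed over the members of each library with at least 10 and tested with edgeR 4.0.16 (R 4.3.3, TMM, quasi-likelihood, Benjamini-Hochberg over all genes tested), with DESeq2 1.42.0 as an alternative. Scrublet scores, in scanpy 1.11.5, marked doublets and removed none from the main set. Only the edgeR age and interaction fits with 2 libraries per age were run on simulated data, with 1 common spread for all genes. Their recovery is not given here. Named genes were, per list, the 6 with the highest mean CPM in members, the 25 with the highest fold at 100 CPM or more, called age genes, and interaction genes at 50 CPM or more. Replicate numbers were not taken to pair libraries. The correlations of same-numbered deviations were 0.118, 0.139 and 0.0313. No differently numbered libraries were compared in this way, so these values cannot decide whether libraries were paired. Over the libraries, 209 of 42882 barcode sequences occurred in more than 1.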

Additional observations from a re-analysis of the deposited data

Results flagged for a closer look

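The test of the difference itself (edgeR interaction term, adjusted over 12349 genes) called 35 genes whose change from 3 to 12 months differed between choroid plexus members and endothelial barcodes. Among named genes the log2 interaction was positive for Mia (2.98), Cox8b (2.95), Atp2b3 (2.86), Vat1l (2.50) and Car12 (2.49). All 5 are at a few CPM or less in endothelial barcodes, and these values alone do not tell which class changed. For Cox8b the endothelial levels overlapped between the ages. In members, Mia (-0.48) and Car12 (-0.47) had negative log2 changes that did not pass the age test. Cox8b (2.10, edgeR adjusted p = 0.0318 with 2 libraries per age) was the 1 gene that the age test called. With 3 libraries per age that test did not call it. Without 12-month replicate 3 none of the 5 was called (edgeR adjusted p = 1), and with 3 libraries per age Mia alone was (1.51, edgeR adjusted p = 0.0301). The interaction was negative for Lgmn (-1.70), AY036118 (-1.94) and Itgb5 (-2.16), and that of AY036118 was 0.11 without 12-month replicate 3.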

How the results depend on the processing

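The number of genes called between the ages, 1 as reported, was 0 with DESeq2, with thinned sums, with at least 5 members per library and with members of at least 3000 UMIs. It was 3 with a minimum of 50 CPM in 3 libraries and 3 without members of 10 or more microglia UMIs, 6 with the gate genes left out and 32 with no filter. It was 23 with at least 1000 genes per barcode and 25 with a stricter gate, but both also drop 3-month replicate 2, which falls under 10 members, and leaving out that library alone gave 25. Leaving out 1 library gave 13 to 25 calls, and 2 to 25 in the set of at least 5 members. In that set a replicate block gave 7 calls; with 4 libraries no block could be fitted, since the ages share 1 replicate number. For Cox8b between the ages, 10 of 22 alternatives lost the call, with log2 changes of 0.38 to 3.83 and adjusted p of 2.48e-05 to 0.83. The interaction count of 35 was 0 with DESeq2, 1 with thinned sums, 9 with at least 1000 genes per barcode (also without 3-month replicate 2, whose loss alone gave 34) and 11 to 45 without 1 library (11 without 12-month replicate 3 and 18 without 3-month replicate 3). With thinned sums the interaction was -0.042 for Atp2b3 and -0.70 for Vat1l, and that of AY036118 ran from -3.06 to 0.11 without 1 library (0.11 without 12-month replicate 3) and was 0.049 with at least 1000 genes per barcode. The share difference ran from -0.0739 to 0.361 percentage points without 1 library. It was 0.137 with no limit on endothelial UMIs and 1.23 with at least 1000 genes per barcode. With each barcode thinned it was 1.09 at 1500 UMIs and 4.47 at 3000 UMIs. With at most 10% mitochondrial UMIs it was 0.193, and 12-month replicates 2 and 3 kept 0 and 5 members. The differences per member ran from -27191 to 8762 UMIs, from -2287 to 1838 genes and from -0.806 to 3.55 percentage points of mitochondrial UMIs. The number of genes with variance over 2 times the mean, 14 as reported, was 8 to 19 without 1 library, 8 being without 12-month replicate 1. Of 200 alternative folds for the 25 genes, 199 moved by less than the spread and none changed sign. A mitochondrial limit of 10% and a minimum of 20 members left too few libraries for a fit and were not run. The cause of these changes was not tested.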
